A study of Bos taurus with 170 samples.

Results

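The genes described here encode the machinery that copies DNA, and their transcripts were counted in single blastomeres of bovine embryos. They were chosen by symbol: MCM, ORC and RFC followed by a number, RPA1 to RPA3, any symbol starting with GINS, POLA, POLD, POLE or PRIM (without the POLDIP genes), and PCNA, CDC6, CDC45, CDT1, FEN1, LIG1 and GMNN. Of the 10772 genes in the table of unique molecular identifier (UMI) counts, 41 met this rule. A list of the 47 genes that make up these complexes also holds CDT1, MCM2, MCM9, MCM10, GINS2 and RFC1, which had no row under their symbol or a RefSeq synonym and were not analysed here. The embryos came from oocytes of slaughterhouse ovaries that were matured and fertilised in vitro, received no treatment, and were picked for the timing of their cleavages. A group of 6 embryos was collected on Day 2 (labelled 8-cell stage) and a group of 8 on Day 3 (labelled 16-cell stage). Their blastomeres were separated after removal of the zona pellucida and sequenced by SCRB-Seq, in which each captured mRNA is tagged with a UMI, so that copies made by PCR are counted as 1. The 43 Day 2 and 118 Day 3 cells with 2000 or more UMI were summed per embryo, and the embryo was the replicate. The sum was 438899 to 920192 UMI on genes in a Day 2 embryo and 294912 to 600185 in a Day 3 embryo. The level of a gene is given as CPM, its UMI scaled to 1000000 UMI on genes in that embryo, and is not scaled by gene length, because a UMI is counted once per captured molecule.

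Replication starts at origins that are bound by the origin recognition complex, where CDC6 and CDT1 load the MCM2-7 helicase onto DNA while geminin (GMNN) holds CDT1 back outside the loading phase. CDC45 and GINS turn the loaded helicase into its active form, polymerase alpha-primase lays down primers, polymerases epsilon and delta extend them, and RFC, PCNA, FEN1 and LIG1 clamp the polymerase to DNA and join the Okazaki fragments of the lagging strand. Cleavage divisions follow each other with little growth in between, the early ones run on transcripts and proteins stored in the oocyte, and in cattle the embryo's own genome is broadly switched on around the stages sampled here.

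The cell barcodes of the labels bear on every comparison of the days. The 78 cells of the Day 2 embryos, Day3-E1 and Day3-E2 carried 78 different barcodes, and all 76 cells of Day3-E4 to Day3-E8 carried barcodes of that set again, so both sets of cells cannot have been told apart within 1 pool. Of the 16 cells of Day3-E3, 15 carried barcodes found in no other embryo. In all, 93 barcodes served 170 cells and 154 cells shared theirs with 1 other cell. The sample titles also end in a suffix, p1, p2 or p3, which the labels do not define. It was used below as a possible batch. Library pool and day therefore overlap and cannot be fully told apart. The ratio of gene UMI to UMI of the ERCC spike-ins, which were added to each well in equal amount, was 64.8 to 71.7 in the Day 2 embryos and 70.5, 67.3 and 67.9 in Day3-E1, Day3-E2 and Day3-E3. It was 32.6 to 40.2 in Day3-E4 to Day3-E8. The ratio was used to compare libraries and was not taken as a measure of RNA per cell. Among the cells of the Day 2 embryos, Day3-E1 and Day3-E2 it lay between 45.2 and 154, while their UMI on genes ran from 2078 to 357287. For this reason the called genes and the complex sums are also given for the Day 2 embryos against Day3-E1 to Day3-E3 alone, a choice made after these ratios had been seen. In the paper, Day3-E1 to Day3-E4 shared the earliest Day 3 collection time, and Day3-E5 to Day3-E8 were collected later. The paper's clustering placed most cells of Day3-E1 and Day3-E2 with most Day 2 cells. The restricted comparison thus also differs in collection time and has fewer Day 3 embryos. A call lost there cannot be assigned to library pool. In Day3-E3, 15 cells had a ratio of 61.1 to 131 and the remaining cell, whose barcode also occurred in a Day 2 cell, had 3.06. The median of the 15 cells was 95.8. It was 69.9 in the cells of the Day 2 embryos, Day3-E1 and Day3-E2, and 35.6 in those of Day3-E4 to Day3-E8. The 67.9 of Day3-E3 as a whole includes the cell with 3.06, so it does not settle which set this embryo belonged to.

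The cells carried the transcripts of oocytes and early embryos. Of 10 marker genes of that kind 9 had a row, and their summed level was 8908 to 10581 CPM in Day 2 embryos and 2909 to 11008 CPM in Day 3 embryos, with DPPA3 the most abundant. Of the 9, GDF9, ZP2, OOEP and ZAR1 were called lower and 0 higher by edgeR, with a median log2 fold change of -0.53, while DPPA3 and KPNA7, which carry most of the sum, had 0.48 and 0.26 (adjusted p = 0.0701 and 0.402). Against Day3-E1 to Day3-E3 alone, ZAR1 kept its call (-1.04, adjusted p = 0.00461), and GDF9 (-0.39, adjusted p = 0.183), ZP2 (-0.25, adjusted p = 0.35) and OOEP (-0.40, adjusted p = 0.0888) did not. The lowest sums were those of Day3-E8 with 2909, Day3-E2 with 5941 and Day3-E4 with 5992 CPM. Of 10 markers of cumulus and granulosa cells, which surround the oocyte, 7 had a row, and they summed to 261 to 350 CPM on Day 2 and 160 to 337 CPM on Day 3. HAS2 supplied most of this, while CYP11A1 had 3 UMI and AMH 11 UMI in all embryos together. TNFAIP6 had 0 to 2.28 CPM on Day 2 and 1.67 to 44.8 CPM on Day 3, above the Day 2 range in 7 of 8 embryos, and INHBA had means of 13.39 and 24.97 CPM, with 6 of 8 embryos above that range and 2 below. Neither was tested, for low counts. Other markers of this list went down. VCAN and HAS2, which were tested, had log2 fold changes of -0.71 (edgeR adjusted p = 0.149) and -0.19 (adjusted p = 0.487). PTX3, untested, had means of 1.71 and 0.533 CPM. The 3 sperm markers with a row did not exceed 7.72 CPM in any embryo. The part of these differences in the results below was not tested.

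Summed over all members, the replication genes were a smaller share of the transcripts on Day 3. The 41 genes together held 7714 to 8376 CPM in the Day 2 embryos, with a median of 7894, and 4986 to 7674 CPM in the Day 3 embryos, with a median of 6400. All 8 Day 3 embryos lay below all 6 Day 2 embryos on this scale. The means were 7986 ± 252 CPM (SD, n = 6) on Day 2 and 6342 ± 933 CPM (SD, n = 8) on Day 3, a ratio of 0.794. With CPM scaled by TMM, which corrects for a change in the composition of the whole library, the log2 ratio of the means moved from -0.33 to -0.07. Against Day3-E1 to Day3-E3 alone it was -0.20 in CPM, and the sums of the single complexes kept the sign they had with all embryos, from -0.49 for MCM8 and PRIMPOL to 0.28 for CDC6 and GMNN. Over all tested genes the median log2 fold change was -0.04 with TMM and -0.27 without it. The separation of the days in summed CPM depended on LIG1, whose own means were 1913 CPM on Day 2 and 1066 CPM on Day 3. Day3-E1 held 7674 CPM in all, of which 1761 were LIG1, and Day2-E2 held 7829 CPM, of which 1950 were LIG1.

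Gene by gene, the changes went both ways. Of the 41 genes, 36 passed the filter on low counts and were tested with edgeR's quasi-likelihood fit, in which p values were adjusted by the Benjamini-Hochberg method over 5274 genes. GMNN, PCNA, FEN1 and MCM7 were called higher on Day 3, which is 11.11% of the 36, beside 21.18% of all tested genes. LIG1, ORC2, ORC4, ORC6, RFC3 and MCM5 were called lower, 16.67% of the 36, beside 11.28% of all tested genes. The median log2 fold change of the 36 genes was -0.23. Only GMNN had all Day 3 embryos above all Day 2 embryos in CPM (3.982% of tested genes did), and ORC2 and LIG1 had all of them below (5.385% of tested genes did). In the fit on the Day 2 embryos and Day3-E1 to Day3-E3, GMNN was the only one of 38 genes called higher by edgeR, beside 7.678% of all genes, and 0 were called lower, beside 1.468%. At an unadjusted p under 0.05, 3 of the 38 were higher and 3 lower in that fit, and DESeq2 was not run on it. All 10 called genes kept their sign there, and the size of each change was smaller. Among embryos of suffixes p2 and p3 with title suffix as a term, 3 of 37 genes were called higher (19.9% of all genes) and 13 lower (17.97% of all genes). This fit leaves out suffix p1, which holds Day3-E1 to Day3-E4 and no Day 2 embryo. With title suffix as a term and all embryos, 3 genes were called higher (16.95% of all genes) and 10 lower (13.73%). DESeq2 called 6 higher (25.14%), MCM3 and ORC1 besides the 4 above, and 11 lower (16.89%), MCM4, ORC3, PRIM2, PRIMPOL and RPA2 besides the 6 above. Without Day2-E1, edgeR called 4 genes higher (18.29% of all genes) and 3 lower (8.712%), and without Day3-E1 5 higher (23.96%) and 9 lower (17.7%).

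**Figure D1:**
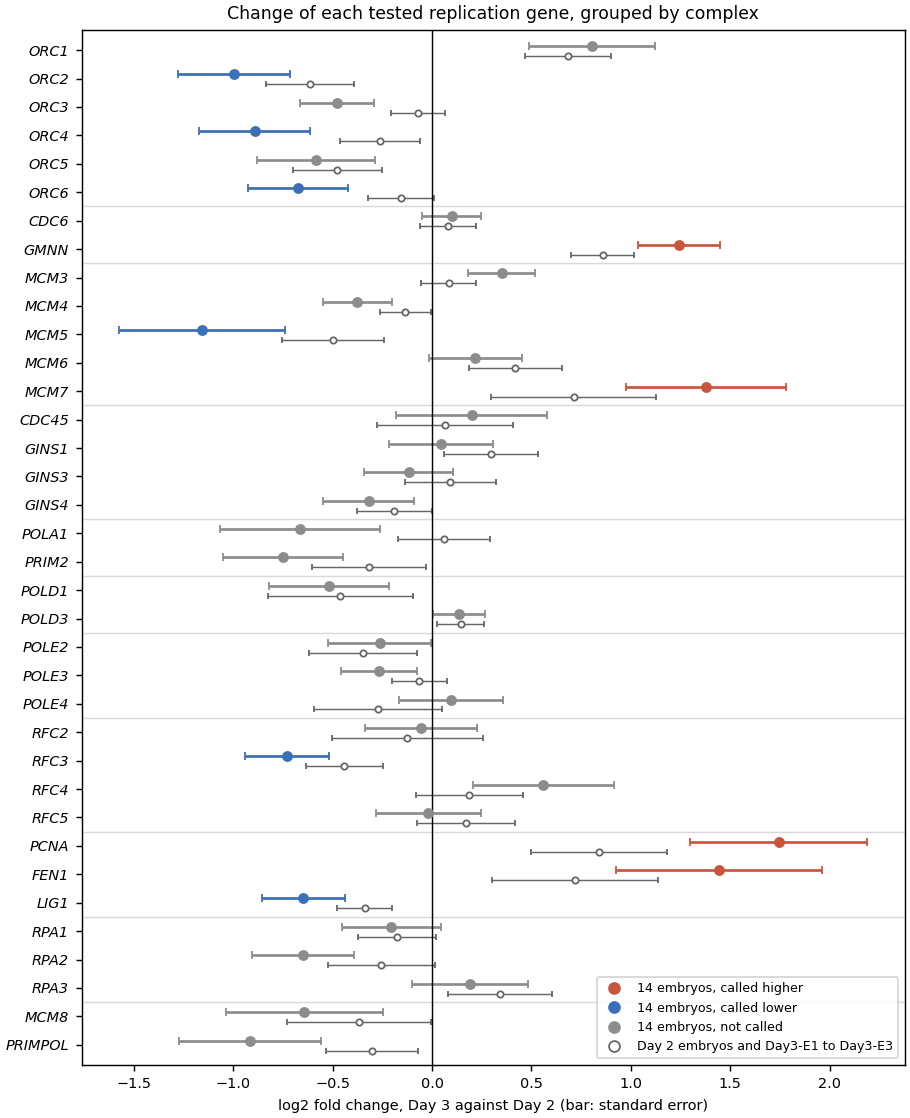
Log2 fold change between Day 3 and Day 2 (x axis, bars show the standard error of the edgeR fit) of the 36 tested replication genes, ordered by complex and separated by grey lines. Filled points come from all 14 embryos and are coloured where the gene was called, open points come from the 6 Day 2 embryos and Day3-E1 to Day3-E3, and PCNA has the highest filled point at 1.74 and MCM5 the lowest at -1.16.

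In CPM without TMM, the summed level of ORC1 to ORC6, the subunits that mark origins, lay below the Day 2 range in all 8 Day 3 embryos. It was 1090 to 1228 CPM on Day 2 (median 1124) and 365 to 1085 CPM on Day 3 (median 729). The means were 1134 ± 51.0 CPM (SD, n = 6) and 690 ± 236 CPM (SD, n = 8), a ratio of 0.608, or -0.72 on the log2 scale. This log2 ratio was -0.48 in TMM-scaled CPM and -0.34 against Day3-E1 to Day3-E3. Day3-E7 held the least and Day3-E1 the most, just under the lowest Day 2 embryo.

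ORC2 had 111 to 180 CPM in the Day 2 embryos (median 134) and 9.70 to 84.8 CPM in the Day 3 embryos (median 59.2). The days did not overlap, and Day3-E7 was the lowest. The fitted log2 fold change was -0.995 (SE, the standard error, 0.28, edgeR adjusted p = 0.0136), and it was called in each of the 14 fits that left out 1 embryo. The call was lost against Day3-E1 to Day3-E3 (-0.61, adjusted p = 0.0979).

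ORC4 had 134 to 214 CPM on Day 2 (median 159) and 38.8 to 158 CPM on Day 3 (median 52.2). Day3-E1 lay within the Day 2 range and the other 7 Day 3 embryos below it. Its log2 fold change was -0.89 (SE 0.28, edgeR adjusted p = 0.0222), and -0.26 (adjusted p = 0.484) against Day3-E1 to Day3-E3. On embryos numbered 1 to 6 of each day it was -0.79 (adjusted p = 0.0597), and -0.90 (adjusted p = 0.0518) with that number as a block.

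ORC6, the subunit least tightly bound to the others, ran from 156 to 202 CPM on Day 2 (median 185) and from 38.9 to 168 CPM on Day 3 (median 99.8). Again Day3-E1 alone lay within the Day 2 range. Its log2 fold change of -0.67 (SE 0.25, edgeR adjusted p = 0.047) lost its call without any 1 of the 6 Day 2 embryos or without Day3-E4, Day3-E6, Day3-E7 or Day3-E8, with adjusted p values up to 0.0782. It was -0.16 (adjusted p = 0.623) against Day3-E1 to Day3-E3, -0.76 (adjusted p = 0.0609) in cells thinned to 10000 UMI and -0.73 (adjusted p = 0.054) without the filter on low counts. On embryos numbered 1 to 6 of each day it was -0.49 (adjusted p = 0.127), and -0.54 (adjusted p = 0.183) with that number as a block.

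ORC3, the most abundant subunit, was nearly even on Day 2, at 301 to 325 CPM (median 309), and ran from 111 to 332 CPM on Day 3 (median 195). Its Day 3 embryos other than Day3-E1 lay below the Day 2 range, and the log2 fold change was -0.48 (SE 0.19, edgeR adjusted p = 0.0584). It was called lower by DESeq2 (adjusted p = 0.0200), without TMM (-0.69), with title suffix as a term (-0.71, adjusted p = 0.0238) and on suffixes p2 and p3 (-0.72). It was also called in cells of 10000 or more UMI (-0.54, adjusted p = 0.0416) and in cells thinned to 10000 UMI (-0.71, adjusted p = 0.049). Against Day3-E1 to Day3-E3 it was -0.07. ORC5 had a log2 fold change of -0.58 (SE 0.30, adjusted p = 0.137). ORC1, whose protein turns over during the cell cycle in mammalian cells, stood apart in sign, with a log2 fold change of 0.81 (SE 0.32, adjusted p = 0.0592). Its 2 highest embryos, Day3-E4 and Day3-E8, reached 182 and 183 CPM, against 62.4 to 106 CPM on Day 2, while Day3-E6 and Day3-E7 lay below that range with 59.2 and 58.2 CPM. Without TMM the log2 fold change was 0.48 (adjusted p = 0.167). It was called in 4 of the fits that left out 1 embryo (without Day3-E1, Day3-E5, Day3-E6 or Day3-E7) and by DESeq2.

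**Figure D2:**
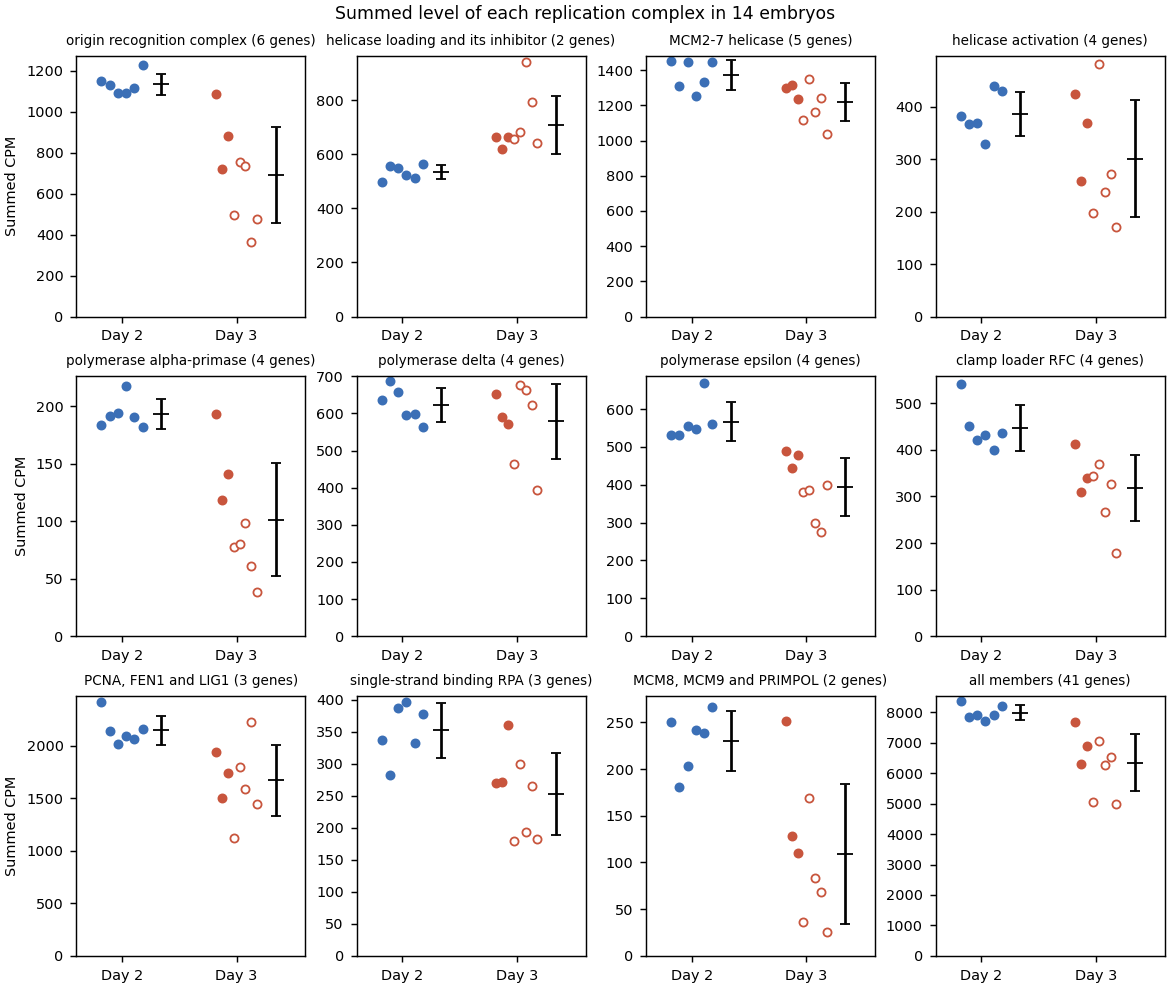
Summed CPM (y axis, from 0) of the genes of each complex in each of 14 embryos by day, with the mean and SD beside the points. Filled points are the Day 2 embryos and Day3-E1 to Day3-E3, open points are Day3-E4 to Day3-E8, and the only panel in which all Day 3 embryos lie above Day 2 is that of CDC6 and GMNN.

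The pair CDC6, the loader, and GMNN, the inhibitor of loading, was the only group whose sum lay above the Day 2 range in every Day 3 embryo, with 498 to 563 CPM on Day 2 (median 536) and 621 to 940 CPM on Day 3 (median 664). GMNN had 193 to 248 CPM on Day 2 (median 220) and 305 to 636 CPM on Day 3 (median 379), highest in Day3-E6 and Day3-E7. The days did not overlap, and the log2 fold change was 1.24 (SE 0.21, edgeR adjusted p = 0.000394). Against Day3-E1 to Day3-E3 alone it was 0.86 (SE 0.16, adjusted p = 0.00453), and GMNN was called under all 12 other settings and in all 14 fits without 1 embryo. CDC6 had 274 to 358 CPM on Day 2 and 203 to 358 CPM on Day 3. Its log2 fold change of 0.10 (SE 0.15, adjusted p = 0.63) turned to -0.16 without TMM.

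The 5 subunits of the MCM2-7 helicase with a row had fold changes of both signs, and their sum overlapped between the days, with 1254 to 1453 CPM on Day 2 (median 1389) and 1037 to 1349 CPM on Day 3 (median 1240). The log2 ratio of the day means was -0.17 in CPM and 0.10 in TMM-scaled CPM, so its direction depended on the scaling. The proteins form a ring with 1 copy of each subunit, but their transcripts spanned from 71.8 CPM (MCM5) to 590 CPM (MCM4) in the Day 2 means.

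MCM7 had 38.0 to 94.0 CPM on Day 2 (median 79.5) and 43.3 to 239 CPM on Day 3 (median 162). Of the Day 3 embryos 6 lay above the Day 2 range, while Day3-E1 and Day3-E5 lay within it. A log2 fold change of 1.38 was fitted (SE 0.40, edgeR adjusted p = 0.0157). The call was kept in the 14 fits without 1 embryo, and was lost against Day3-E1 to Day3-E3 (0.71, adjusted p = 0.336) and in cells thinned to 10000 UMI (1.32, adjusted p = 0.0745). It was also lost on embryos numbered 1 to 6 of each day (1.12, adjusted p = 0.0561), and with that number as a block (0.93, adjusted p = 0.137).

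MCM5 went the other way, from 59.4 to 87.6 CPM on Day 2 (median 69.2) to 0 to 61.6 CPM on Day 3 (median 18.3). Day3-E1 lay within the Day 2 range and the other 7 embryos below it, and Day3-E4 had 0 of 334590 UMI, which allows up to 8.97 CPM. The log2 fold change of -1.16 (SE 0.42, edgeR adjusted p = 0.0405) rested on 377 UMI over all embryos and lost its call in 10 of the 14 fits that left out 1 embryo, those without any of the 6 Day 2 embryos or without Day3-E2, Day3-E6, Day3-E7 or Day3-E8. Against Day3-E1 to Day3-E3 it was -0.50 (adjusted p = 0.262), and with title suffix as a term -1.48 (adjusted p = 0.053). On embryos numbered 1 to 6 of each day it was -0.95 (adjusted p = 0.112), and -1.14 (adjusted p = 0.111) with that number as a block.

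MCM4, the most abundant subunit on Day 2, had 511 to 663 CPM on Day 2 (median 579) and 172 to 558 CPM on Day 3 (median 406). The 2 lowest embryos were Day3-E8 and Day3-E4, and 6 of 8 Day 3 embryos lay below the Day 2 range. MCM4 had a log2 fold change of -0.38 (SE 0.17, edgeR adjusted p = 0.0993, DESeq2 adjusted p = 0.0419), and of -0.13 (edgeR adjusted p = 0.585) against Day3-E1 to Day3-E3. MCM3, whose mean was above that of MCM4 on Day 3 (453 against 392 CPM), had a log2 fold change of 0.35 (SE 0.17, adjusted p = 0.119, DESeq2 adjusted p = 0.0431). In edgeR that of MCM3 was 0.075 (adjusted p = 0.736) without TMM and 0.084 (adjusted p = 0.77) against Day3-E1 to Day3-E3. MCM6 had 0.22 (SE 0.23, adjusted p = 0.492), which turned to -0.06 without TMM and to -0.17 with title suffix as a term.

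CDC45 and the GINS subunits, which activate the helicase, had 0 called genes among the 4 tested by edgeR, 0 at an unadjusted p under 0.05 and 0 by DESeq2. Their sum was 329 to 440 CPM on Day 2 (median 376) and 170 to 481 CPM on Day 3 (median 265), with 5 Day 3 embryos below and 1, Day3-E5, above the Day 2 range. GINS4, the most abundant, had 154 to 214 CPM on Day 2 (median 163) and 38.6 to 211 CPM on Day 3 (median 121), with a log2 fold change of -0.32 (SE 0.23, edgeR adjusted p = 0.292). The log2 fold changes of the others were 0.20 for CDC45, 0.05 for GINS1 and -0.12 for GINS3, and those of CDC45 and GINS1 turned negative without TMM (-0.06 and -0.14).

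**Figure D3:**
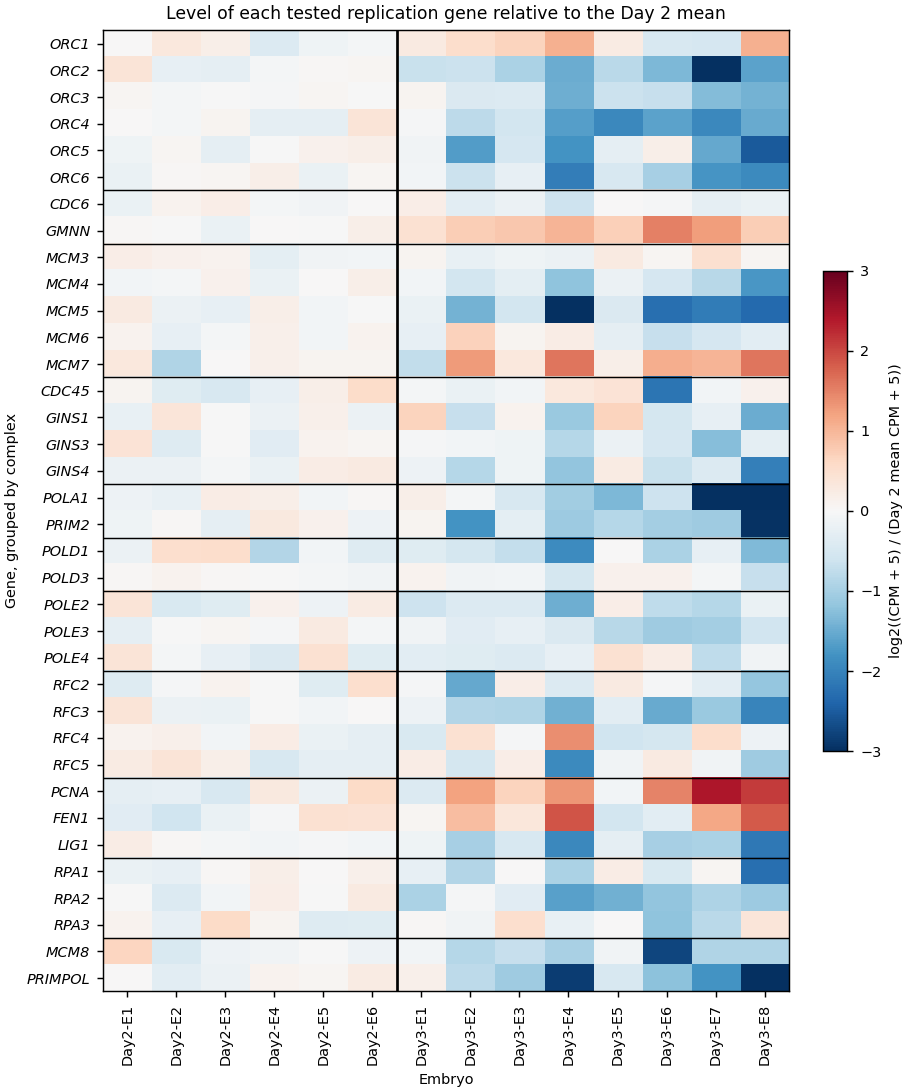
Level of the 36 tested replication genes (rows, grouped by complex) in the 14 embryos (columns), as log2 of CPM plus 5 over the Day 2 mean plus 5, with red above and blue below the Day 2 mean and colours capped at 3 in either direction. Day3-E1 is the palest Day 3 column, and the strongest colours fall in Day3-E4 and Day3-E6 to Day3-E8.

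Polymerase alpha-primase starts each new strand, and its transcripts were few. Neither of its 2 tested genes was called in the main edgeR fit (all embryos, TMM, the filter, day as the only term). PRIM2 alone had an unadjusted p under 0.05 there and a call by DESeq2. In other edgeR fits PRIM2 was called lower without TMM, and both genes were called lower with title suffix as a term. The 4 genes summed to 182 to 218 CPM on Day 2 (median 191) and 38.6 to 193 CPM on Day 3 (median 89.6), and all Day 3 embryos except Day3-E1 lay below the Day 2 range. The ratio of the means was 0.524, or -0.93 on the log2 scale, and -0.36 against Day3-E1 to Day3-E3. PRIM2, the large primase subunit and the most abundant of the 4, had 77.8 to 117 CPM on Day 2 (median 91.1) and 7.72 to 100 CPM on Day 3 (median 42.9), with Day3-E1 alone inside the Day 2 range. Its log2 fold change was -0.75 (SE 0.30, edgeR adjusted p = 0.0645), and -1.15 (adjusted p = 0.0291) with title suffix as a term. It was -1.16 (adjusted p = 0.0105) on suffixes p2 and p3 and -0.94 (adjusted p = 0.039) without TMM. Against Day3-E1 to Day3-E3 it was -0.32 (adjusted p = 0.558). POLA1, the catalytic subunit, had -0.66 (SE 0.40, adjusted p = 0.208), which became -1.64 (adjusted p = 0.011) with title suffix as a term, -1.62 (adjusted p = 0.00841) on suffixes p2 and p3 and 0.059 (adjusted p = 0.917) against Day3-E1 to Day3-E3. In Day3-E7 and Day3-E8 it was at 3.23 and 2.57 CPM, which is 1 UMI each, against 51.1 to 71.2 CPM on Day 2. POLA2 and PRIM1, with 151 and 71 UMI in all, did not pass the filter on low counts. POLA2 had 21.8 to 34.2 CPM on Day 2 and 2.99 to 20.3 CPM on Day 3 without overlap, and in the fit without the filter its log2 fold change was -1.02 (edgeR adjusted p = 0.0433), and it was called lower on suffixes p2 and p3. Against Day3-E1 to Day3-E3 it was -0.61 (adjusted p = 0.307) and not called. PRIM1 had 44 UMI on Day 2 and 27 on Day 3.

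In the main edgeR fit (all embryos, TMM, the filter, day as the only term), polymerases delta and epsilon had 0 called genes among 2 and 3 tested, at either threshold (adjusted or unadjusted p under 0.05). DESeq2 called 0 of them, and other edgeR fits called POLE3, as given below. The sum for polymerase delta, the lagging-strand enzyme, was 563 to 687 CPM on Day 2 (median 617) and 394 to 676 CPM on Day 3 (median 607), and the log2 ratio of the means was -0.11 in CPM and 0.15 in TMM-scaled CPM. POLD3, an accessory subunit, made up most of it, with 519 to 605 CPM on Day 2 (median 565) and 348 to 616 CPM on Day 3 (median 534). The days overlapped for 3 of 8 Day 3 embryos, 3 lay above and 2, Day3-E4 and Day3-E8, below, and the log2 fold change of POLD3 was 0.13 (SE 0.13, edgeR adjusted p = 0.447), or -0.11 without TMM. The catalytic subunit POLD1 had a log2 fold change of -0.52 (SE 0.30, adjusted p = 0.191). POLD2 and POLD4 had too few counts to be tested. POLD2 had 54 UMI on Day 2 and 87 on Day 3, with a log2 fold change of 1.36 (edgeR adjusted p = 0.0311) in the fit without the filter, and POLD4 had 1 UMI in all embryos together.

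The sum for polymerase epsilon, the leading-strand enzyme, was 532 to 668 CPM on Day 2 (median 552) and 275 to 488 CPM on Day 3 (median 393). In CPM without TMM, all Day 3 embryos lay below all Day 2 embryos, and the ratio of the means was 0.696, or -0.52 on the log2 scale. In TMM-scaled CPM it was -0.25, and against Day3-E1 to Day3-E3 it was -0.27. POLE3, a histone-fold subunit and the most abundant, had 368 to 535 CPM on Day 2 (median 432) and 208 to 407 CPM on Day 3 (median 310), with 6 of 8 Day 3 embryos below the Day 2 range. Its log2 fold change was -0.27 (SE 0.19, edgeR adjusted p = 0.288), and it was called lower without TMM (-0.54, adjusted p = 0.0352), with title suffix as a term (-0.61, adjusted p = 0.0347) and on suffixes p2 and p3 (-0.62, adjusted p = 0.0291). The value of POLE3 against Day3-E1 to Day3-E3 was -0.065 (adjusted p = 0.829). POLE2 and POLE4 had log2 fold changes of -0.26 and 0.10, and that of POLE4 turned to -0.16 without TMM. POLE itself, the catalytic subunit, had 78 UMI, 53 on Day 2 and 25 on Day 3, and was not tested.

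The RFC genes of the clamp loader summed to 399 to 541 CPM on Day 2 (median 434) and 178 to 412 CPM on Day 3 (median 333), with 7 of 8 Day 3 embryos below the Day 2 range. RFC3 was the most abundant and the only one called. It had 224 to 340 CPM on Day 2 (median 250.1) and 61.8 to 233 CPM on Day 3 (median 126), and Day3-E1 alone lay within the Day 2 range. For RFC3 the log2 fold change was -0.73 (SE 0.21, edgeR adjusted p = 0.0157), and the call was lost against Day3-E1 to Day3-E3 (-0.44, adjusted p = 0.181) and in cells thinned to 10000 UMI (-0.77, adjusted p = 0.0559). This call was also lost on embryos numbered 1 to 6 of each day, with or without that number as a block. The other small subunits, RFC2 and RFC5, had log2 fold changes of -0.06 and -0.02, and RFC4 had 0.56 (SE 0.35, adjusted p = 0.225), with 212 CPM in Day3-E4 against 49.4 to 113 CPM in the other Day 3 embryos.

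In the group of sliding clamp and Okazaki fragment joining, PCNA, the clamp, and FEN1, the flap nuclease that binds it, were called higher, and LIG1, the ligase that seals the nick after FEN1 has cut, was called lower. PCNA had 154 to 328 CPM on Day 2 (median 186) and 162 to 1196 CPM on Day 3 (median 528). Of the Day 3 embryos 6 lay above the Day 2 range, Day3-E7 and Day3-E8 furthest, and Day3-E1 and Day3-E5 lay within it. The log2 fold change of 1.74 (SE 0.45, edgeR adjusted p = 0.00733) was called in all 14 fits without 1 embryo and was 0.84 (SE 0.34, adjusted p = 0.146) against Day3-E1 to Day3-E3.

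LIG1 was the most abundant replication gene on Day 2, with 1804 to 2221 CPM (median 1849), and had 427 to 1761 CPM on Day 3 (median 971). The days did not overlap, although Day3-E1 with 1761 CPM and Day3-E5 with 1586 CPM came close. For LIG1 the log2 fold change was -0.65 (SE 0.21, edgeR adjusted p = 0.0264), or -0.34 (adjusted p = 0.144) against Day3-E1 to Day3-E3, and the call was lost without Day2-E1, the highest embryo (adjusted p = 0.0528), with title suffix as a term (-0.70, adjusted p = 0.0525) and in cells thinned to 10000 UMI (-0.47, adjusted p = 0.0943). This call was also lost on embryos numbered 1 to 6 of each day, with or without that number as a block. In every Day 2 embryo LIG1 had more UMI than PCNA, whereas in Day3-E4, Day3-E7 and Day3-E8 PCNA had more (547 against 493.1, 1196 against 983, and 942 against 427 CPM).

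FEN1 was scarce, with 178 UMI in all. It had 9.78 to 25.6 CPM on Day 2 (median 15.63) and 10.397 to 77.7 CPM on Day 3 (median 30.4), with 4 Day 3 embryos above the Day 2 range and the other 4 within it. The log2 fold change of 1.44 (SE 0.52, edgeR adjusted p = 0.0393) lost its call in 9 of the 14 fits without 1 embryo, those without Day2-E1, Day2-E2, Day2-E3, Day2-E4, Day2-E6, Day3-E2, Day3-E4, Day3-E7 or Day3-E8, with adjusted p values up to 0.0971, and also without TMM (0.0587). It was 0.93 (adjusted p = 0.194) with title suffix as a term, 0.95 (adjusted p = 0.0847) on suffixes p2 and p3 and 0.72 (adjusted p = 0.33) against Day3-E1 to Day3-E3.

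**Figure D4:**
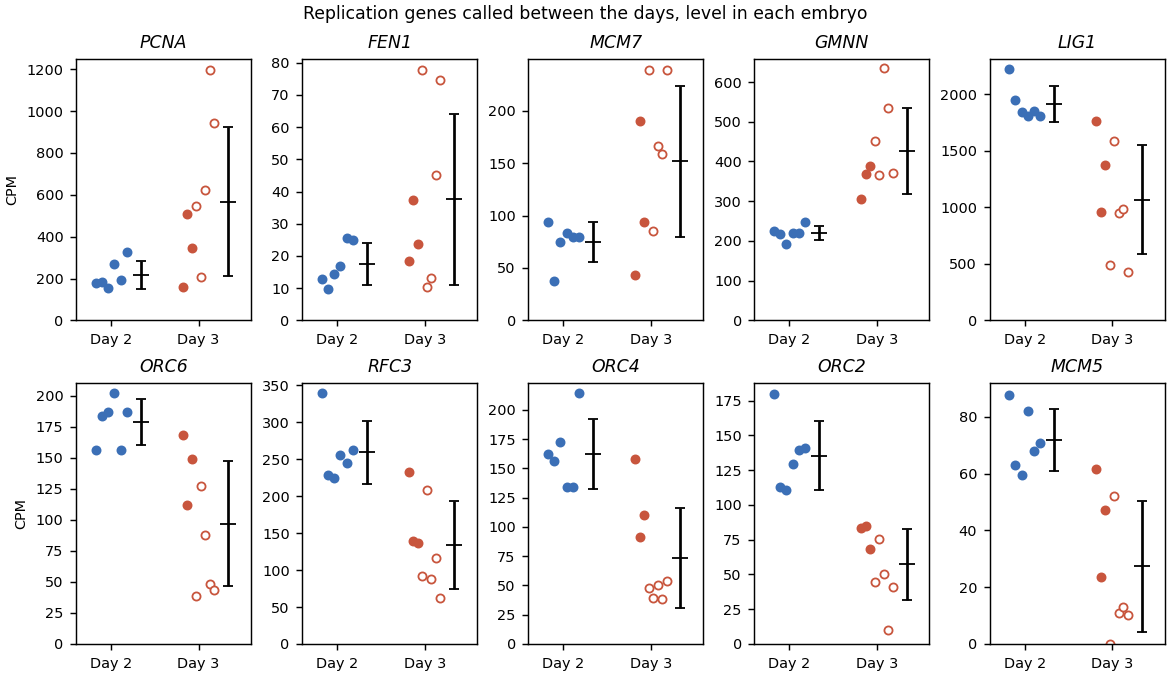
CPM (y axis, from 0) of the 10 called replication genes in each embryo by day, with the mean and SD beside the points, from the highest to the lowest log2 fold change. Filled points are the Day 2 embryos and Day3-E1 to Day3-E3, open points are Day3-E4 to Day3-E8, and the days are separate for GMNN, LIG1 and ORC2.

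The RPA genes, whose trimer coats unwound DNA, summed to 283 to 396 CPM on Day 2 (median 358) and 179 to 361 CPM on Day 3 (median 268). In the main edgeR fit (all embryos, TMM, the filter, day as the only term), 0 of the 3 were called, and RPA2 alone had an unadjusted p under 0.05. RPA2 alone was also called by DESeq2. The same held for PRIMPOL among the 2 genes of fork repair. RPA1, the large subunit and the most abundant, had 129 to 175 CPM on Day 2 (median 157) and 28.3 to 179 CPM on Day 3 (median 121), with 4 of 8 Day 3 embryos below the Day 2 range and a log2 fold change of -0.21 (SE 0.25, edgeR adjusted p = 0.547). RPA2 had -0.65 (SE 0.26, adjusted p = 0.0587), and was called lower without TMM (-0.90, adjusted p = 0.013), with title suffix as a term (-0.98, adjusted p = 0.0275), on suffixes p2 and p3 (-0.99), without the filter (-0.73) and in cells of 10000 or more UMI (-0.69). Its value against Day3-E1 to Day3-E3 was -0.25 (adjusted p = 0.627). RPA3 had 0.19, which turned to -0.09 without TMM. PRIMPOL, a primase that restarts stalled forks, had 161 to 242 CPM on Day 2 (median 206) and 12.9 to 225 CPM on Day 3 (median 88.8). All Day 3 embryos except Day3-E1, which lay within the Day 2 range, were below it, and the log2 fold change was -0.92 (SE 0.36, edgeR adjusted p = 0.0583). PRIMPOL was called lower without TMM (-1.07, adjusted p = 0.042), with title suffix as a term (-1.28, adjusted p = 0.0443), on suffixes p2 and p3 (-1.27) and in cells thinned to 10000 UMI (-0.82, adjusted p = 0.0493), and was -0.30 (adjusted p = 0.481) against Day3-E1 to Day3-E3. MCM8, part of a helicase used in recombination, had 158 UMI and a log2 fold change of -0.64 (SE 0.39, adjusted p = 0.208).

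The Day 3 embryos were uneven in CPM. Of the 36 tested genes, Day3-E1 had 26 within the range of the 6 Day 2 embryos (72.2%, beside 62.0% of all tested genes), Day3-E3 had 19 (52.8%, beside 47.2%) and Day3-E5 had 17 (47.2%, beside 41.0%). In the other 5 embryos between 4 (Day3-E4, 11.11%, beside 16.44% of all tested genes) and 10 (Day3-E2, 27.8%, beside 26.2%) genes lay within it, and in Day3-E8 7 did (19.4%, beside 12.9%). In Day3-E4, 25 of the 36 genes (69.4%) were below the Day 2 range and 7 above, beside 55.6% and 28.0% of all tested genes. In Day3-E8, 24 (66.7%) were below and 5 above, beside 59.3% and 27.8% of all tested genes. In Day3-E6, 25 (69.4%) were below, beside 42.5% of all tested genes, and in Day3-E7 24 (66.7%), beside 48.2%. The smallest departure was that of Day3-E1, with 5 below and 5 above, beside 20.1% and 17.9% of all tested genes. These counts depended on the scaling. In TMM-scaled CPM 20 genes (55.6%) were below and 9 (25%) above in Day3-E4, beside 42.8% and 37.9% of all tested genes. In Day3-E6 they were 21 (58.3%) and 7 (19.4%), beside 35.3% and 34.1%. In Day3-E7 they were 19 (52.8%) and 8 (22.2%), beside 38.7% and 36.9%. In Day3-E8 they were 17 (47.2%) and 13 (36.1%), near the 45.2% and 39.0% of all tested genes.

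Counts per cell were compared after each cell of 10000 or more UMI was thinned to 10000, which kept 37 Day 2 and 103 Day 3 cells. A median of 25 of the 41 genes had a UMI in a thinned Day 2 cell (range 20 to 30) and 21 in a Day 3 cell (range 13 to 29), against 39 and 28.5 in unthinned cells. ORC2 had a UMI in 73.0% of thinned Day 2 cells and 37.9% of Day 3 cells (88.4% and 62.7% unthinned). For MCM7 the thinned shares were 51.4% and 70.9% (93.0% and 91.5% unthinned), and for GMNN they were 83.8% and 97.1% (95.3% and 98.3% unthinned). For PCNA they were 89.2% and 94.2% (93.0% and 96.6% unthinned), so nearly all cells of both days carried it, and the mean was 1.973 and 6.204 UMI per thinned cell. LIG1 had a UMI in every thinned Day 2 cell and in 99.0% of Day 3 cells (100% of unthinned cells on both days), with a mean of 16.81 and 10.87 UMI. FEN1, called higher in the embryo sums, had a UMI in 32.4% and 27.2% of thinned cells (65.1% and 44.9% unthinned), with a mean of 0.378 and 0.408 UMI.

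Cells of the same embryo differed in their PCNA counts. In Day3-E7 its 12 thinned cells held 3 to 20 UMI of PCNA with a median of 15, and in Day3-E4 its 11 cells held 1 to 16 with a median of 6. The variance over the mean, which counting alone would place near 1, was 3.04 in Day3-E7, 3.02 in Day3-E4, 2.63 in Day3-E5, 0.826 to 1.51 in the other 5 Day 3 embryos and 0.0714 to 1.90 in the Day 2 embryos. The means differed as well, from 1.69 to 12.3 UMI in Day 3 embryos and from 1 to 2.8 UMI in Day 2 embryos. For LIG1 the ratio was 0.637 to 2.09 in Day 3 embryos and 0.854 to 3.26 in Day 2 embryos. For GMNN it was highest in Day3-E5 (2.76), where 13 cells held 0 to 11 UMI with a median of 3.

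**Figure D5:**
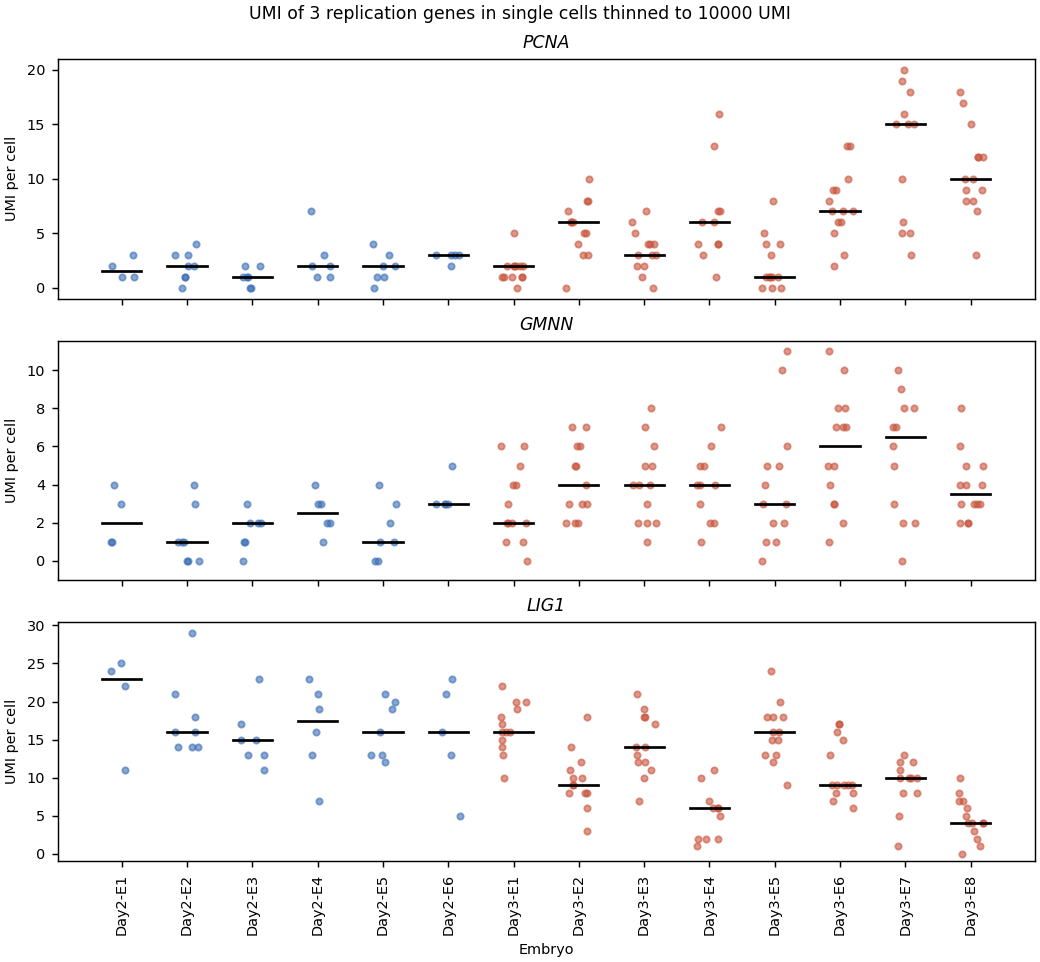
UMI of PCNA, GMNN and LIG1 (y axes) in single cells thinned to 10000 UMI, by embryo (x axis), with 1 point per cell (shifted sideways to separate them), blue for Day 2 and red for Day 3, and a black line at the median. For PCNA the medians lie between 1 and 3 UMI in all Day 2 embryos and reach 15 in Day3-E7.

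Other genes of replication, listed by function, were read from the same fit. Of 64 listed genes 52 had a row and 37 were tested, 7 were called higher (18.92%, beside 21.18% of all tested genes) and 6 lower (16.22%, beside 11.28%), and their median log2 fold change was -0.04, the same as that of all tested genes to 2 decimals. Among the origin firing regulators 2 of 6 tested were called higher and 1 lower. CCNE1, the cyclin that with CDK2 drives entry into S phase, had 3.84 to 23.5 CPM on Day 2 (median 12.5) and 25.0 to 242 CPM on Day 3 (median 89.7), without overlap, and a log2 fold change of 3.39 (SE 0.58, edgeR adjusted p = 0.000449), or 2.53 (adjusted p = 0.0105) against Day3-E1 to Day3-E3. DONSON, which brings GINS to the helicase, had 55.6 to 81.5 CPM on Day 2 (median 63.0) and 5.98 to 36.7 CPM on Day 3 (median 28.9), also without overlap, and a log2 fold change of -1.13 (SE 0.26, edgeR adjusted p = 0.00344), or -0.84 (adjusted p = 0.0392) against Day3-E1 to Day3-E3.

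Of 7 tested genes of nucleotide supply 2 were called, both higher. They were TK1, thymidine kinase, with a log2 fold change of 1.80 (SE 0.50, edgeR adjusted p = 0.0112), and RRM2, the small subunit of ribonucleotide reductase, with 1.01 (SE 0.29, adjusted p = 0.0145). Among 7 tested genes of fork protection and clamp unloading only TIMELESS was called with TMM, lower, with -0.82 (SE 0.23, edgeR adjusted p = 0.0128). TIPIN had all Day 3 embryos (74.4 to 189 CPM) below all Day 2 embryos (191 to 264 CPM), with a log2 fold change of -0.37 (adjusted p = 0.167). The nuclease and helicase DNA2, with -1.18 (SE 0.38, adjusted p = 0.0261), and TOP1, the topoisomerase that relaxes DNA ahead of the fork, were both tested genes of the Okazaki and topology list, and both were called lower. Of 9 tested genes of replication-coupled chromatin 2 were called higher and 2 lower, among them RBBP4 with 0.94 (SE 0.34, adjusted p = 0.0455) and SUPT16H, a subunit of the histone chaperone FACT, with -0.78 (SE 0.23, adjusted p = 0.0154). Of 4 tested E2F and pocket protein genes E2F1 was called higher, and of 2 tested genes of MCM handling and origin timing 0 were called by edgeR, with 0 at an unadjusted p under 0.05 and 0 by DESeq2. Against Day3-E1 to Day3-E3 alone, CCNE1 and DONSON kept their call, TOP1 had -0.12 (adjusted p = 0.621), E2F1 0.50 (adjusted p = 0.221), and TK1, RRM2, RBBP4, DNA2, TIMELESS and SUPT16H had adjusted p values of 0.168 to 0.524. CDK2 and SSRP1, called higher over all embryos, had 0.64 (adjusted p = 0.133) and 0.38 (adjusted p = 0.0881) there. ASF1A, called lower over all embryos, had -0.37 (adjusted p = 0.344). Without TMM, 4 of the 7 genes called higher lost their call, E2F1 (adjusted p = 0.307), RBBP4 (0.102), CDK2 (0.154) and SSRP1 (0.315). In that fit CLSPN (-0.63, adjusted p = 0.0343), TIPIN (-0.63, adjusted p = 0.0293) and RB1 (-0.89, adjusted p = 0.0361), uncalled with TMM, were called lower.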

How the data were processed

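Libraries of single blastomeres were made by SCRB-Seq and sequenced. Per the paper's methods and the labels, the authors mapped reads to Bos tau7 and the ERCC sequences with STAR 2.5.2b, counted UMI with the Drop-seq pipeline and deposited the UMI counts per gene and cell. The normalised table was not used here. The members and gene lists were chosen with earlier results of these data known.

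Cells with 2000 or more UMI (161 of 170) were kept and their counts summed per embryo without the 92 ERCC rows. Day 3 was compared with Day 2 in edgeR 4.0.16 (R 4.3.3) by glmQLFit and glmQLFTest after filterByExpr and TMM, with Benjamini-Hochberg adjustment over all genes tested and a threshold of 0.05. Sums over a complex were not tested. Every member was to be named, with values by embryo for the called members and for the most abundant member of each complex, and of the other lists up to 4 called genes in each direction. On simulated data with known changes the fit recovered 52.1% of genes changed by 1 and 98% of those changed by 2 on the log2 scale, among 5121 genes. Same-numbered embryos of the days did not deviate together (correlations of -0.134 to 0.0252), so the numbers were not used as pairs. Alternatives were DESeq2 1.42.0, other filters, scalings and cells, title suffix, barcode set and single embryos left out. The limit for a count of 0 was taken as 3 UMI and covers counting error only. The p-values set the difference of the days against the spread between these embryos. The labels do not say which embryos share parents, so the embryos may not be independent and the p-values may be too small.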

Additional observations from a re-analysis of the deposited data

Results flagged for a closer look

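Within the 6 Day 2 or the 8 Day 3 embryos, 1 embryo stood far from the others in 10 of 94 groups of values (11 complex sums and 36 tested genes on 2 days), where chance gives about 1 in 20 for independent groups. Of these, 5 belonged to Day2-E1, which was highest for LIG1 (2221 CPM, next 1950 CPM), RFC3 (339.8, next 262), MCM8 (47.0, next 28.2) and the sums of the clamp loader (540.7, next 452) and of PCNA, FEN1 and LIG1 (2413, next 2160). These 2 sums hold the flagged RFC3 and LIG1, so the groups are not independent and the 10 cannot be set strictly against that share. Day2-E4 was highest for polymerase alpha-primase (217.7 CPM, next 194), Day2-E5 for polymerase epsilon (668.1, next 560), and Day2-E2 was lowest for MCM7 (38.04, next 75.2). On Day 3, Day3-E6 was lowest for CDC45 (2.192 CPM, next 23.7) and Day3-E4 was highest for RFC4 (212.2, next 113). The cells under 2000 UMI, which entered no comparison, held 17 UMI of the replication genes in 4 Day 2 cells and 17 UMI in 5 Day 3 cells, above the 3 UMI that a count of 0 allows.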

How the results depend on the processing

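With all 14 embryos, edgeR called 1712 of 5274 tested genes, 1117 higher and 595 lower, with 4 of 36 tested members higher and 6 lower. With the first barcode set only it was 351 of 6193 genes (327 higher, 24 lower), and 1 and 0 of 38 members. With Day3-E3 added, a choice made after seeing the data, it was 542 of 5926 (455, 87), and 1 and 0 of 38 members. With cells thinned to 10000 UMI it was 759 of 2756 (530, 229), and 2 and 3 of 22 members, so fewer genes and members were tested there. With the replicate block on embryos 1 to 6 it was 702 of 5110 (488, 214), and 2 and 1 of 36 members. Without the block on the same embryos it was 1008 of 5110 (710, 298), and 2 and 2 of 36 members, with no sample pair sharing more than a number. ORC4, ORC6, MCM5, MCM7, RFC3 and LIG1 lost their call with the block and without it on these embryos. Members called lower were 11 with DESeq2, 11 without TMM (981 genes lower), 10 with title suffix as a term and 13 on suffixes p2 and p3 (972 genes lower). Leaving out 1 embryo gave 1327 to 2163 genes, 907 to 1244 higher and 420 to 919 lower, with 3 to 5 members higher and 3 to 9 lower.

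Of the log2 ratios of complex sums, TMM-scaled CPM moved helicase loading to 0.69, MCM2-7 to 0.10, polymerase delta to 0.15, polymerase epsilon to -0.25, the sliding clamp group to -0.10 and all members to -0.074. With the first barcode set only, alpha-primase moved to -0.31 and epsilon to -0.280, and with Day3-E3 added to -0.36 and -0.27. Without 1 embryo, they kept their sign and stayed within 1 SD. The log2 fold changes of these uncalled members changed sign. RFC5 became 0.016 with DESeq2, 0.00239 with RLE, 0.018 on embryos 1 to 6, 0.17 with the first barcode set and Day3-E3, 0.065 with that set only, 0.14 with title suffix as a term and 0.12 on suffixes p2 and p3. RFC2 became 0.040 on embryos 1 to 6, 0.018 with title suffix as a term, 0.013 on suffixes p2 and p3 and 0.00453 under the block. POLE4, GINS3 and POLA1 became -0.27, 0.093 and 0.059 with the first barcode set and Day3-E3, and -0.24, 0.12 and 0.23 without Day3-E3, where ORC3 became 0.019. Without TMM, POLE4, POLD3, CDC45, CDC6, MCM6, RPA3 and GINS1 became -0.16, -0.11, -0.065, -0.16, -0.064, -0.086 and -0.14, and without the filter GINS1 became -0.014. MCM6 became -0.17 with title suffix as a term and -0.19 on suffixes p2 and p3, where CDC45 became -0.00847. Without 1 embryo, GINS1 ranged from -0.090 to 0.128, POLE4 from -0.028 to 0.177, RFC2 from -0.182 to 0.072, RFC5 from -0.144 to 0.113 and RPA3 from -0.0043 to 0.291. The causes were not tested.

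The fits without 1 embryo of the smallest group still pooled the spread over 13 embryos. The tested genes under about 200 UMI in all, FEN1, MCM8, CDC45 and RFC2, rest on few counts. Their standard errors were 0.52, 0.39, 0.38 and 0.28, beside 0.45 for PCNA with 2498 UMI. Of the 5 members below the filter POLA2 and POLD2 were called in some fits that kept them (without the filter, and in 3 and 5 other fits). PRIM1, POLD4 and POLE were called in none of the fits run.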
